A study of Mus musculus with 12 samples.

Results

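The loci of 9 genes of pericellular proteolysis, 6 matrix metalloproteinases (*Mmp2*, *Mmp3*, *Mmp9*, *Mmp11*, *Mmp13* and *Mmp14*) and 3 tissue inhibitors of metalloproteinases (*Timp1*, *Timp2* and *Timp3*), were examined for chromatin accessibility in cultured mouse fibroblasts. Each locus was the GENCODE M21 gene body plus 50000 bp upstream of its start, and a peak belonged to a locus when its summit lay inside. The 9 genes are part of 21938 protein-coding genes in the annotation, and their loci held 299 of the 658361 peaks in the 12 libraries.

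The cells were primary skeletal muscle fibroblasts of Aromhum mice, which carry the human aromatase gene, grown from lower abdominal muscle and named hernia-associated fibroblasts (HAFs) in the study. All 12 cultures shared this genotype, so no group was free of the transgene. Vehicle cultures received ethanol and DMSO, E2 cultures received 10 nM estradiol, E2 plus fulvestrant cultures received 10 nM estradiol with 100 nM of the estrogen receptor antagonist fulvestrant, and fulvestrant cultures received 100 nM fulvestrant without estradiol. Each treatment had 3 libraries, and the labelled time was 1 hour, which followed 3 hours of pretreatment with fulvestrant or DMSO in serum-free medium. Neither the labels nor the methods say whether the 3 libraries of a treatment came from separate mice, so p-values measure the spread between these libraries, which may be technical.

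Matrix metalloproteinases are zinc endopeptidases that are made as inactive proenzymes and cut collagens, proteoglycans and other matrix proteins once the propeptide is removed. The TIMPs bind the catalytic site of the active enzymes and block it. In fibroblasts the balance of the 2 families sets how fast the extracellular matrix is turned over, and TIMP2 has a second role, since it links pro-MMP2 to MMP14 at the cell surface, where pro-MMP2 is activated.

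ATAC-seq uses a transposase to insert sequencing adapters into accessible DNA, and a peak is a place where the tags of a library pile up above a local background. Lists held from 30062 to 110724 peaks, with a median of 46548, and from 7.35% to 46.4% of a list had a q-value of 0.05 or less. No read totals were used here. Depth was read from the background tag count of each list, which ranged from 0.713 in vehicle replicate 1 to 1.42 in fulvestrant replicate 3, so that between 3 and 5 tags at a summit were enough for listing. More tags were needed where the local background was higher. A locus or region with no peak in a list is therefore one that did not reach the tags needed there, and it is not shown to be closed. The 4 libraries numbered 1 stood apart from the others, with 22 to 36 peaks on the Y chromosome against 854 to 1148 in the libraries numbered 2 and 3. Of the fibroblast markers fixed for a check of the cell type, 11 of 12 had a promoter peak in at least 1 library, with a median of 6 libraries per gene, while over all protein-coding genes 11.8% had none and the median was 5. *Pdgfra* had one in 7 libraries and *Tcf21* in none. The median was 1.5 libraries over 8 skeletal muscle markers, 2 over 5 endothelial and over 4 epithelial markers, and 3 over 5 immune markers, and all endothelial, immune and epithelial markers had a promoter peak in at least 1 library, and between 1 and 11 of the fibroblast markers had a promoter peak in any single library.

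The DNA under the most recurrent distal peaks is shown first, because distal regions made up 8 of the 15 regions called in 5 or more libraries in the 9 loci, and the genes' own promoters 2. Genome-wide, at least 9762 of the 19499 regions called in 5 or more libraries had their strongest summit at a distal position. Overlapping peaks of the 12 libraries were merged into regions, and the 5 regions farther than 3000 bp from any transcript start that were called in the most libraries lay in *Timp2* (3 regions), *Timp3* and *Mmp2*. Each line gives the summit of the strongest call with 75 bases on either side, in mm10, plus strand, 5′ to 3′, with capitals marking the AP-1 motif.
Timp2, 9620 bp upstream, chr11:118365285-118365435: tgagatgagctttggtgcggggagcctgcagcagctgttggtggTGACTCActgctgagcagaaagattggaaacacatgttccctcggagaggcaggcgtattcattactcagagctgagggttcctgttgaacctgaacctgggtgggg
Timp2, intron, 28013 bp inside, chr11:118327652-118327802: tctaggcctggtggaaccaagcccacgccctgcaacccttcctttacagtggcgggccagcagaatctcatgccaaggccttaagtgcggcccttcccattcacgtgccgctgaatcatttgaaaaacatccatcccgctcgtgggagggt
Timp2, 23950 bp upstream, chr11:118379615-118379765: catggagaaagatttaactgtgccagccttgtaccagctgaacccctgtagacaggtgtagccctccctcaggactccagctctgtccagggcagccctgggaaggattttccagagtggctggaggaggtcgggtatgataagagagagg
Timp3, intron, 39447 bp inside, chr10:86339744-86339894: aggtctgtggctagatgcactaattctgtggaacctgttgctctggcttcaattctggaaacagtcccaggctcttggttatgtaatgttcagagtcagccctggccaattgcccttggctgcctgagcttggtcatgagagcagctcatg
Mmp2, intron, 7660 bp inside, chr8:92834876-92835026: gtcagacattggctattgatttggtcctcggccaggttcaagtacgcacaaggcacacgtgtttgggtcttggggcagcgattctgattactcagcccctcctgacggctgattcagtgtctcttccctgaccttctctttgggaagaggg

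All 5 stretches occurred once in the mouse genome by their 32-base words. They were searched on both strands for the estrogen response element GGTCANNNTGACC (ERE), the AP-1 motif TGACTCA or TGAGTCA, the TEAD motif GGAATG, the RUNX motif TGTGGTT and the ETS motif CCGGAAG. A single match was found, the AP-1 motif upstream of *Timp2*, and it overlaps no other motif. AP-1 was present in 3.07% of 340518 distal regions of the same length genome-wide and in 5.21% of the 9762 distal regions called in 5 or more libraries, and the ERE in 0.0194% and 0.0307%. Absence of a match says only that these letters are not within 75 bp of the summit.

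Promoter sequences from RefSeq (GRCm38.p6) were matched for 7 of the 9 genes, all but *Mmp2* and *Mmp9*. Those of *Mmp3*, *Mmp13*, *Mmp14* and *Timp3* are shown because the first pair had no promoter peak in any library and the second pair had one in 5 and 8 libraries. Each is read 5′ to 3′ on the plus strand, which is the coding strand of all 4 genes, and ends at the base before the RefSeq start or, for *Timp3*, before the first annotated exon. Capitals mark AP-1, the TATA box TATAAA and the GC box GGGCGG on either strand.
Mmp3, chr9:7445572-7445821: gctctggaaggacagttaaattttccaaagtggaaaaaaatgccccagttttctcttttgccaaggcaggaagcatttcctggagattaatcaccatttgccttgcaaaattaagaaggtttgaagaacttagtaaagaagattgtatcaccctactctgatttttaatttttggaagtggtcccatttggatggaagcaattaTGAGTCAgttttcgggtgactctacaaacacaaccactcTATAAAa
Mmp13, chr9:7272264-7272513: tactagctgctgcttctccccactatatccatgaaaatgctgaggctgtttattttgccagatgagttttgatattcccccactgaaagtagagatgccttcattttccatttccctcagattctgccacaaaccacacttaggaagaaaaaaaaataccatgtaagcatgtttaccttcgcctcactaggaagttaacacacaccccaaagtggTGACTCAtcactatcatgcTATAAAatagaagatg
Mmp14, chr14:54431348-54431597: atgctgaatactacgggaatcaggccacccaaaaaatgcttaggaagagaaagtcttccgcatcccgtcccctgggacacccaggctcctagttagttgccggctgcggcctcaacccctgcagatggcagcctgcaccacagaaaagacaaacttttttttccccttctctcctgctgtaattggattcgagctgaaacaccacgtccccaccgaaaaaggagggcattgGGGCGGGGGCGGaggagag
Timp3, chr10:86300162-86300371: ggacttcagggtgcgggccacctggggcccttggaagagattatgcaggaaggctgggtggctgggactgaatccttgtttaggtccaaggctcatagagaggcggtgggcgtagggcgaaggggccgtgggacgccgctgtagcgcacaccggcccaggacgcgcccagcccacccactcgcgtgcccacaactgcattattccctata

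The *Mmp3* and *Mmp13* promoters each held 1 AP-1 motif, which began 46 and 35 bases before the RefSeq start, and 1 TATA box. They were A and T rich, with a GC content of 37.6% and 40.4%. The *Mmp14* promoter held 2 GC boxes, no AP-1 motif and no TATA box, and had a GC content of 55.2%. Over the 250 bases before the start, *Timp3* had 1 GC box, in the exon that is not printed, and a GC content of 65.6%, *Timp2* 1 GC box and 68%, and *Mmp11* 2 GC boxes and 63.2%, while *Timp1*, which had no promoter peak, had 1 GC box and 54.4%. Across 32841 promoters the AP-1 motif was found in 4.46%, the TATA box in 12.4% and the GC box in 32.7%, and the median GC content was 52.4%. The ERE was found in 0.0639% of all promoters and in none of the 7.

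Accessibility was spread unevenly over the 9 loci. Per 100 kb of locus and averaged over 12 libraries, the density of peaks was highest at *Timp2* (5.81 ± 2.86, SD), followed by *Mmp11* (4.74 ± 2.61), *Mmp2* (4.60 ± 3.47), *Mmp9* (4.35 ± 2.69), *Mmp14* (4.18 ± 1.93), *Timp3* (3.78 ± 1.98), *Mmp3* (2.49 ± 2.30), *Mmp13* (1.78 ± 2.04) and *Timp1* (0.916 ± 1.24). The median of all protein-coding loci was 3.08, so 6 of the 9 lay above it and the 2 secreted proteases of the chromosome 9 cluster, *Mmp3* and *Mmp13*, lay below it with *Timp1*. *Timp2* was denser than 93.2% of all protein-coding loci and *Timp1* than 10.4%. Peaks at starts of other genes are included. They ranged from 0 of 45 at *Timp3* and 0 of 18 at *Mmp3* to 19 of 32 at *Mmp14* and 6 of 6 at *Timp1*, with 21 of 73 at *Timp2*. Summed over the 9, density relative to the whole genome ranged from 1.03 to 3.33 among the 12 libraries, against 1.26 to 1.60 for all protein-coding loci, and it was below the value of all protein-coding loci in 2 libraries, vehicle replicate 2 (1.03 against 1.26) and fulvestrant replicate 3 (1.27 against 1.44).

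**Figure D1:**
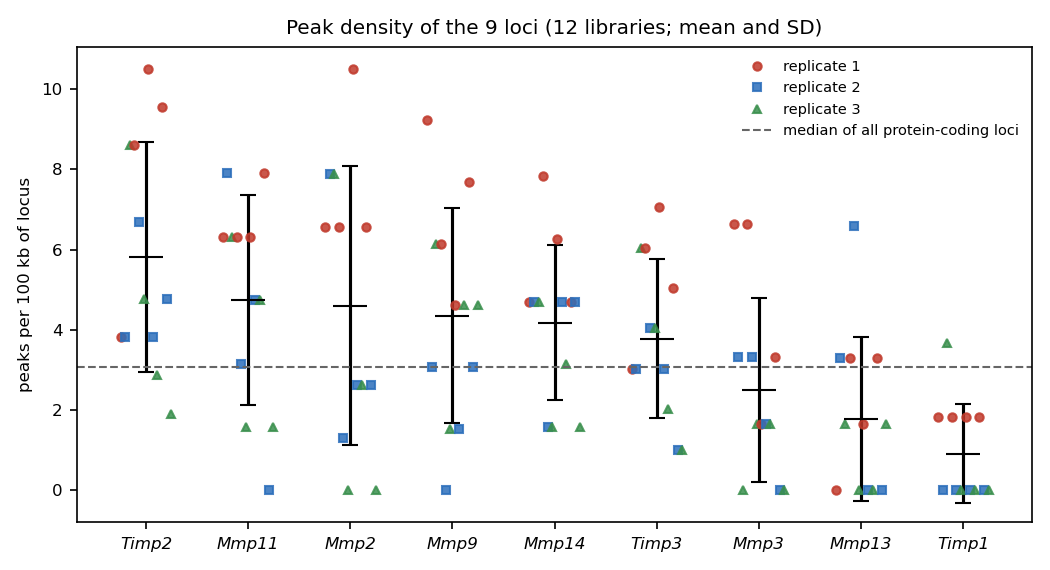
Peaks per 100 kb of locus (y axis) for the 9 loci in order of their mean (x axis). Each point is 1 of 12 libraries, marked by replicate number, the horizontal bar is the mean and the whisker the SD, and the dashed line is the median of all protein-coding loci, 3.08. *Timp2* has the highest mean, 5.81, and *Timp1* the lowest, 0.916, and points of adjacent loci overlap throughout.

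No neighbours in this order differed beyond the spread over libraries. The exact two-sided sign-flip permutation test over 12 libraries gave an adjusted p of at least 0.596 for all 8 neighbouring pairs, the lowest raw p being 0.120 for *Timp3* above *Mmp3* (higher in 9 of 12 libraries). Across the whole order the loci did separate, with 12 of 36 pairs at an adjusted p under 0.05. *Timp2* was denser than *Timp3* by 2.03 ± 1.38 (SD of the difference) peaks per 100 kb and higher in 12 of 12 libraries (exact permutation p = 0.000488, adjusted over 36 pairs 0.00352). *Timp2* also exceeded *Mmp13* and *Timp1* in 12 of 12 libraries. These densities count peaks at starts of other genes, which were 21 of 73 at *Timp2* and 0 of 45 at *Timp3*. The test was not run without those peaks, so the difference cannot be assigned to the *Timp2* gene itself. The libraries were lists of different length, and pairs within a library share that length. The test takes the 12 libraries as independent. They span the 4 treatments, and libraries that share a treatment or an origin may not be independent, so these p-values may be too low.

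Among the gelatinases, *Mmp2* (ENSMUSG00000031740.8, chr8:92827291-92853420), the type IV collagenase of fibroblasts, held 5, 6 and 6 peaks in vehicle, 5, 1 and 0 in E2, 8, 2 and 2 in E2 plus fulvestrant, and 5, 2 and 0 in fulvestrant, for replicates 1, 2 and 3. Vehicle was even, while in each other treatment replicate 1 was far above replicates 2 and 3. *Mmp9* (ENSMUSG00000017737.2, chr2:164940780-164955850), the gelatinase best known from inflammatory cells, held 6, 2 and 4 peaks in vehicle, 4, 0 and 1 in E2, 3, 1 and 3 in E2 plus fulvestrant, and 5, 2 and 3 in fulvestrant. The *Mmp9* groups overlapped in all comparisons.

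Where the peaks lay differed between these 2 gelatinase loci. Of the 42 *Mmp2* peaks, 9 lay within 3000 bp of one of its 4 annotated transcript starts, 17 farther inside the gene and 15 upstream, with 1 at another gene's start. Most of its regions were called in 1 library, and 3 were called in 5 or more. The intronic region 7660 bp inside the gene (chr8:92834699-92835545) was called in 6 libraries with q of 0.05 or less in each, one 23040 bp inside (chr8:92850061-92850669) in 5 libraries, and one 8960 bp upstream (chr8:92818150-92818577) in 5. The region 23040 bp inside held the highest fold enrichment in any of the 9 loci, 9.42 in fulvestrant replicate 1, against 6.42 in E2 replicate 1, 5.86 in E2 plus fulvestrant replicate 1, 4.81 in vehicle replicate 1 and 3.75 in vehicle replicate 3, where fold enrichment is the tag pileup at the summit over its local background, each with 1 added. The most recurrent promoter region of *Mmp2* (chr8:92828345-92828843, in an intron, 1332 bp inside) was called in 3 libraries.

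None of the 34 *Mmp9* peaks was a distal peak in the gene body, and 20 were upstream and distal. The region called in the most libraries, 6, lay at another gene, at the start of *Zfp335os* and inside *Zfp335* (chr2:164910888-164912651, 29457 bp upstream), with a fold enrichment from 4.02 to 8.82. Promoter peaks of *Mmp9* were found in 3 libraries, in none within 1000 bp of a start, and no *Mmp9* promoter region was called in more than 1 library.

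*Mmp3* (ENSMUSG00000043613.8, chr9:7445822-7455975), the stromelysin that cuts proteoglycans and activates other proenzymes, held 4, 2 and 0 peaks in vehicle, 4, 2 and 1 in E2, 1, 1 and 1 in E2 plus fulvestrant, and 2, 0 and 0 in fulvestrant. No *Mmp3* promoter peak was found. A region 7688 bp inside the gene (chr9:7453216-7453687), in an intron, was called in the 4 libraries numbered 1 and in no other, with a fold enrichment from 5.26 to 6.21. The region called in the most libraries, 35081 bp upstream (chr9:7410509-7411112), was found in 2 of 3 vehicle, 3 of 3 E2, 1 of 3 E2 plus fulvestrant and 0 of 3 fulvestrant libraries. This was the only region of 5 or more libraries in the 9 loci whose sequence was not unique. Its 32-base words occurred between 115 and 199 times in the genome, so tags there cannot be assigned to this place, and q of 0.05 or less was reached in 1 library.

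*Mmp11* (ENSMUSG00000000901.17, chr10:75923222-75936496), a stromelysin activated inside the cell by furin, held 4, 5 and 4 peaks in vehicle, 4, 2 and 1 in E2, 4, 3 and 3 in E2 plus fulvestrant, and 5, 0 and 1 in fulvestrant. It had promoter peaks in 8 libraries, as many as any of the 9 genes, but spread over 6 annotated transcript starts. Of its promoter regions 2 were called in 4 libraries each. One (chr10:75932129-75932610) lay in an *Mmp11* intron with its summit 249 bp from an *Mmp11* start, and had q of 0.05 or less in 2 libraries. The other, with the higher median fold enrichment (chr10:75938032-75938548, in an exon of the neighbouring gene *Gm867*, 1717 bp upstream), had q of 0.05 or less in 4, and the start of *Chchd10* lies 904 bp from the first summit and 993 bp from the second. Peaks at either cannot be assigned to 1 of these genes.

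*Mmp13* (ENSMUSG00000050578.10, chr9:7272514-7283331), the main collagenase of the mouse, held 0, 2 and 1 peaks in vehicle, 2, 4 and 0 in E2, 1, 0 and 0 in E2 plus fulvestrant, and 2, 0 and 1 in fulvestrant. No peak lay within 3000 bp of its start or elsewhere in the gene body, and its 13 peaks were all upstream, 4 of them at starts of other genes. No *Mmp13* region was called in more than 2 libraries, and no peak of the locus had q of 0.05 or less.

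*Mmp14* (ENSMUSG00000000957.11, chr14:54431612-54445364), the membrane-type protease that activates pro-MMP2, held 3, 3 and 3 peaks in vehicle, 5, 1 and 1 in E2, 4, 3 and 2 in E2 plus fulvestrant, and 3, 3 and 1 in fulvestrant. The region at its start (chr14:54431343-54431894, summit 77 bp upstream), which covers the promoter sequence printed above, was called in replicate 1 of E2, E2 plus fulvestrant and fulvestrant and in no vehicle library, with a fold enrichment from 3.99 to 4.78. Vehicle replicate 1 had a background tag count of 0.713, against 1.105 to 1.253 in the other libraries numbered 1. The part of depth in the missing vehicle call was not tested. A larger region near the end of the gene (chr14:54442896-54444424, summit in an exon 12295 bp inside) was called in 6 libraries with q of 0.05 or less in all. Its fold enrichment was 4.82 and 8.28 in vehicle replicates 1 and 3, 5.83 in E2 replicate 1, 7.38 in E2 plus fulvestrant replicate 1, and 8.75 and 4.59 in fulvestrant replicates 1 and 2. A short unclassified transcript, *5430430K15Rik*, starts 2411 bp from that summit, and *Mrpl52* starts 60 bp from the summit of another region, 4763 bp upstream (chr14:54426659-54427252), called in 5 libraries.

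**Figure D2:**
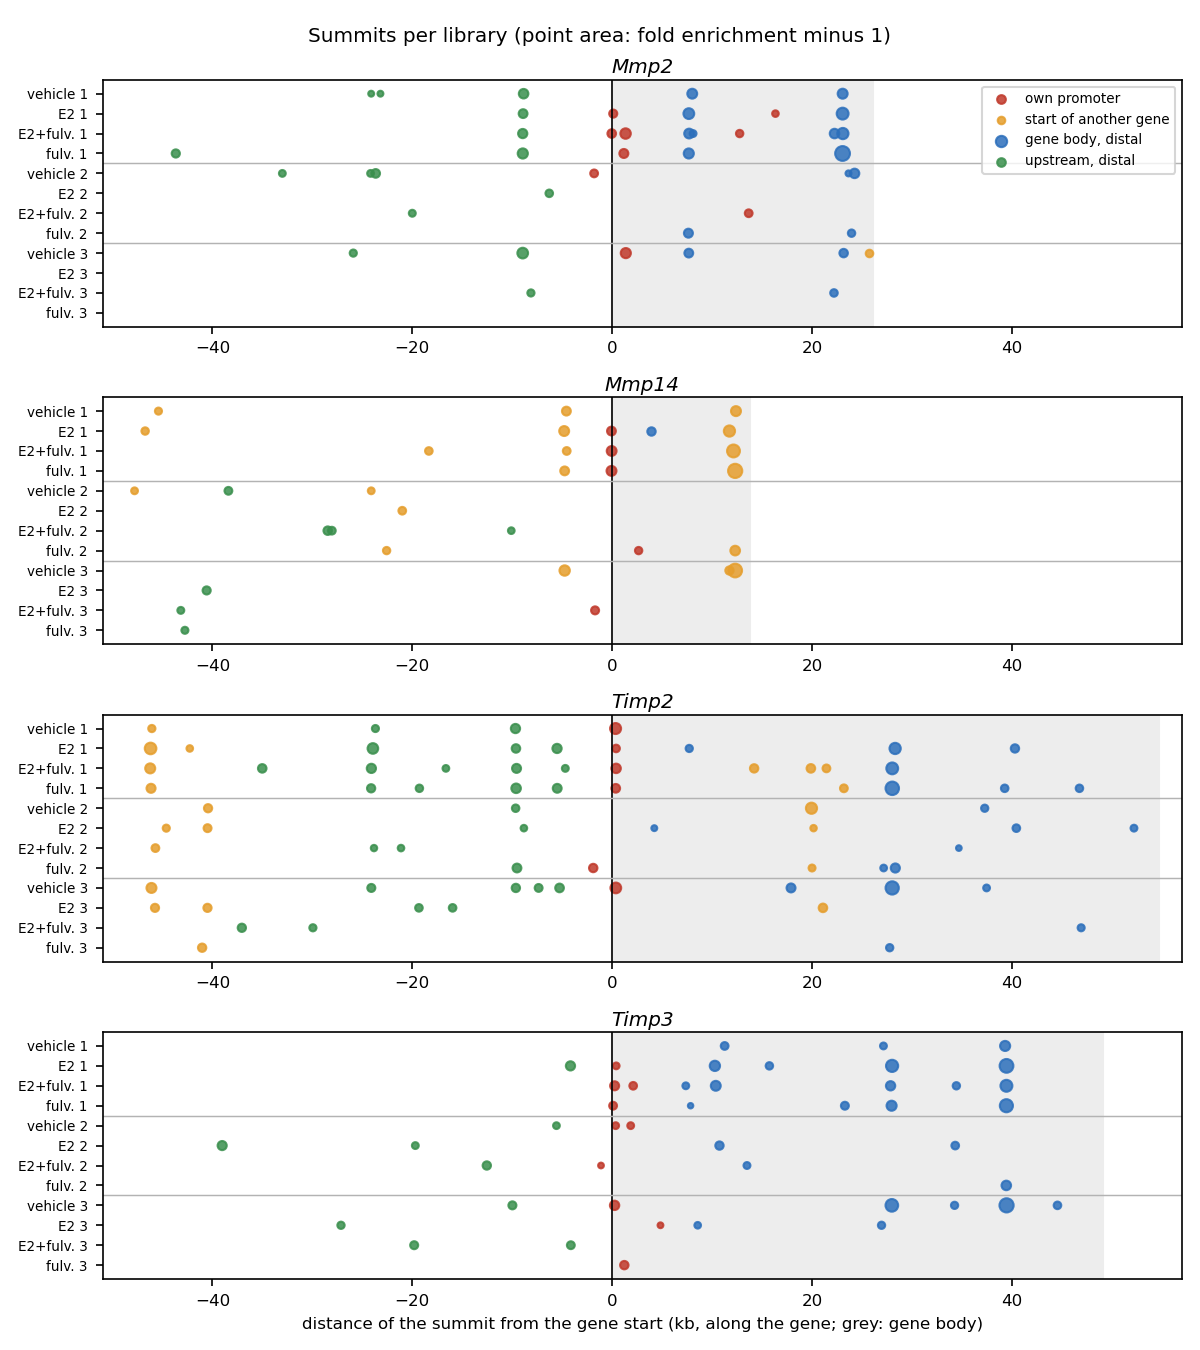
Summits in the *Mmp2*, *Mmp14*, *Timp2* and *Timp3* loci by distance from the gene start in kb along the gene (x axis) and by library (y axis, grouped by replicate number), with point area proportional to fold enrichment minus 1 and colour giving the class of the peak. Summits line up in columns across the libraries numbered 1 and vehicle replicate 3, as at 7660 bp and 23040 bp inside *Mmp2*, and are scattered in most other libraries.

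Of the inhibitors, *Timp2* (ENSMUSG00000017466.9, chr11:118301069-118355740, minus strand) held 4, 4 and 9 peaks in vehicle, 9, 7 and 5 in E2, 11, 4 and 3 in E2 plus fulvestrant, and 10, 5 and 2 in fulvestrant, the most of the 9 loci. Its promoter region (chr11:118355131-118355749) was called in 5 libraries, the 4 numbered 1 and vehicle replicate 3, with q of 0.05 or less in each and a fold enrichment from 3.21 to 5.66. The summit lay in the first, noncoding part of the transcript, so no sequence is printed for it.

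Of the regions in the 9 loci, the one 9620 bp upstream of *Timp2*, with the AP-1 motif, was called in more libraries than any other, 7 of 12. It had a peak in 3 of 3 vehicle libraries (fold enrichment 4.29, 3.15 and 3.67), in E2 replicate 1 (3.78), in E2 plus fulvestrant replicate 1 (4.11) and in fulvestrant replicates 1 and 2 (4.50 and 3.98). The intronic region 28013 bp inside (chr11:118327071-118328279) was stronger, with 7.75 in vehicle replicate 3, 5.87 in E2 replicate 1, 6.38 in E2 plus fulvestrant replicate 1, and 7.96, 4.20 and 3.05 in fulvestrant replicates 1, 2 and 3. It was thus called in 3 of 3 fulvestrant libraries and in 1 of 3 in each other treatment. Of these 6 calls 5 had q of 0.05 or less. The call in fulvestrant replicate 3, with 7 tags, did not, and the 3 of 3 rests on it. The share of all regions with this pattern is not given here. The region 23950 bp upstream (chr11:118379304-118380027) was called in 6 libraries, and q was 0.05 or less in 3 of them. Part of the upstream signal lay at *Lgals3bp*, whose start is 60 bp from the summit of a region called in 5 libraries.

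*Timp3* (ENSMUSG00000020044.13, chr10:86300372-86349506), the inhibitor that stays bound to the matrix, held 3, 3 and 6 peaks in vehicle, 6, 4 and 4 in E2, 7, 3 and 2 in E2 plus fulvestrant, and 5, 1 and 1 in fulvestrant. Most lay in the gene body, 26 of 45, and the gene itself lies within *Syn3*. The intronic region 39447 bp inside (chr10:86339373-86340335) had the highest median fold enrichment among the regions called in 3 or more libraries, 7.05, with 4.91 and 8.73 in vehicle replicates 1 and 3, 8.28 in E2 replicate 1, 6.48 in E2 plus fulvestrant replicate 1, and 7.62 and 4.50 in fulvestrant replicates 1 and 2. The promoter region (chr10:86300421-86300845, summit 231 bp inside) was called in 5 libraries, in 3 of them with q of 0.05 or less.

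*Timp1* (ENSMUSG00000001131.11, chrX:20870166-20874735), the inhibitor that is induced by growth factors, had the fewest peaks, 1, 0 and 2 in vehicle and 1, 0 and 0 in each other treatment. All 6 lay at starts of other genes, and 5 of them formed 1 region at the start of *Araf* (chrX:20848247-20848695, 21665 bp upstream of *Timp1*). No peak was found in the *Timp1* gene body or at its own starts.

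**Figure D3:**
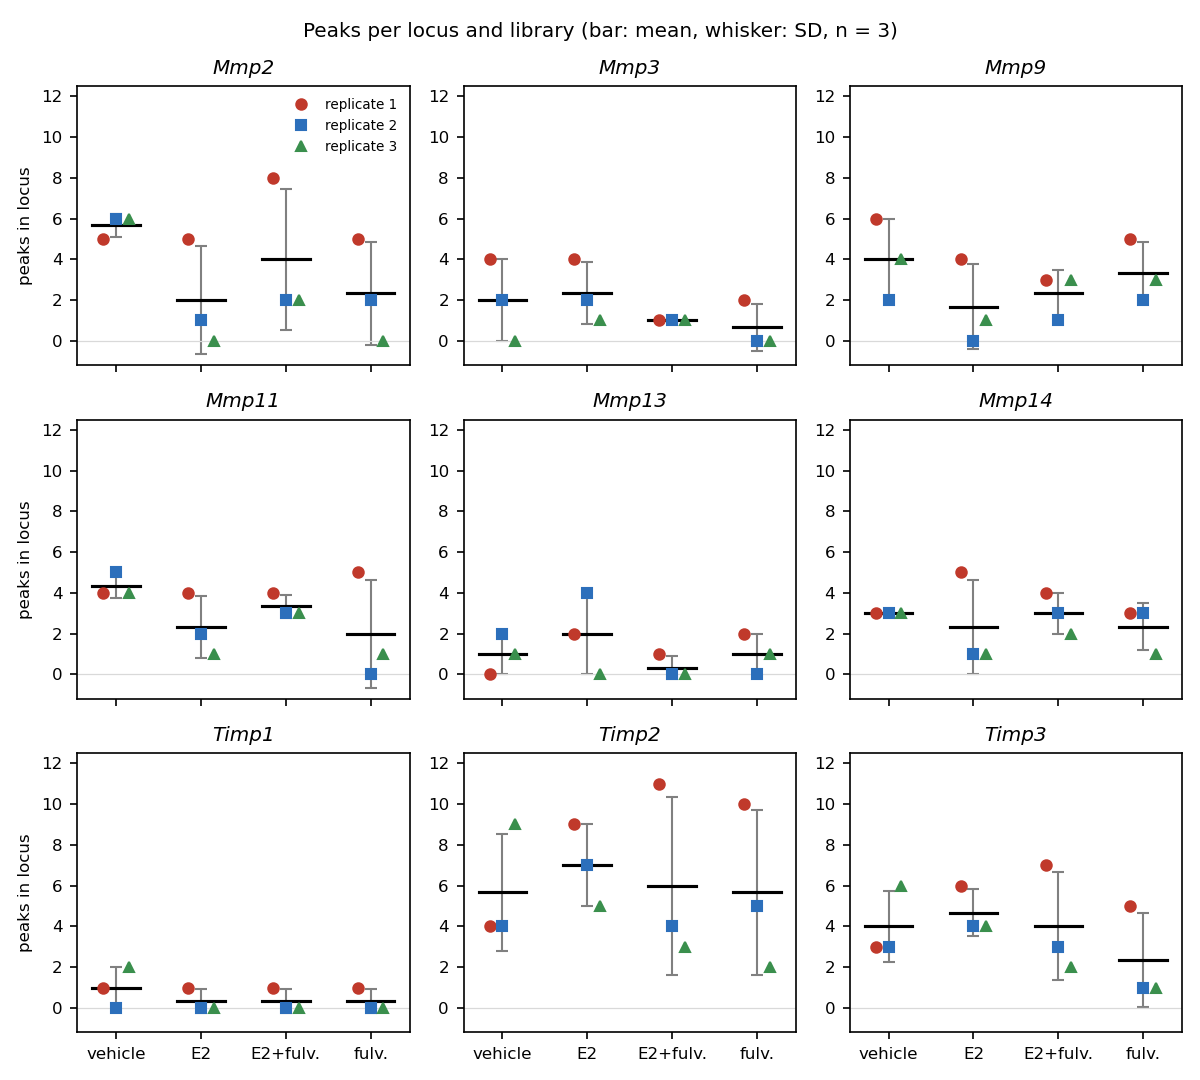
Peaks per locus (y axis) by treatment (x axis) for the 9 genes, with 1 point per library marked by replicate number, the bar giving the mean and the whisker the SD of 3 libraries. Replicate 1 is the highest point in most groups, and no pair of treatments is separated at any gene.

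Counted over all 12 libraries, a peak within 3000 bp of the gene's own starts was present in 8 libraries for *Mmp11* and *Timp3*, 6 for *Mmp2* and *Timp2*, 5 for *Mmp14*, 3 for *Mmp9* and 0 for *Mmp3*, *Mmp13* and *Timp1*. The median was 5, which is also the median of all protein-coding genes, of which 11.8% had no promoter peak in any library. From 0 to 6 of the 9 genes had a promoter peak in any one library. Own promoters made up 16.1% of the 299 peaks, starts of other genes 25.8%, distal positions in the gene body 22.4% and distal upstream positions 35.8%. Among the other genes of the pathway, 16 other *Mmp* genes had a median of 2.5 libraries with a promoter peak and 10 activators and receptors a median of 7. In the latter group *Lrp1*, the endocytic receptor that clears MMP and TIMP complexes, had a promoter peak in 12 of 12 libraries, and *Bsg*, an inducer of MMPs, in 10. Genes with more annotated starts have a larger promoter window, and this was not adjusted for. The medians were 6 for 44 collagen chains and 3 for 49 keratin genes.

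The peaks of the 9 loci merged into 176 regions, of which 73.3% were called in 1 library, against 77.7% of 435284 regions genome-wide. The share called in 5 or more libraries was 8.52% (15 regions) in the 9 loci and 4.48% genome-wide, and no region was called in more than 7 libraries, while 721 regions elsewhere were called in all 12. Of the 15, 2 were promoters of the genes themselves, 5 lay at starts of other genes and 8 were distal. They were not evenly spread over the libraries: 12 of the 15 (80%) were called in all 4 libraries numbered 1 and in vehicle replicate 3, as were 56.9% of the 19499 such regions genome-wide. E2 replicate 1 had 15 of the 15, vehicle replicate 3 had 14, and E2 replicate 2, E2 plus fulvestrant replicates 2 and 3 and fulvestrant replicate 3 had 1 each.

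**Figure D4:**
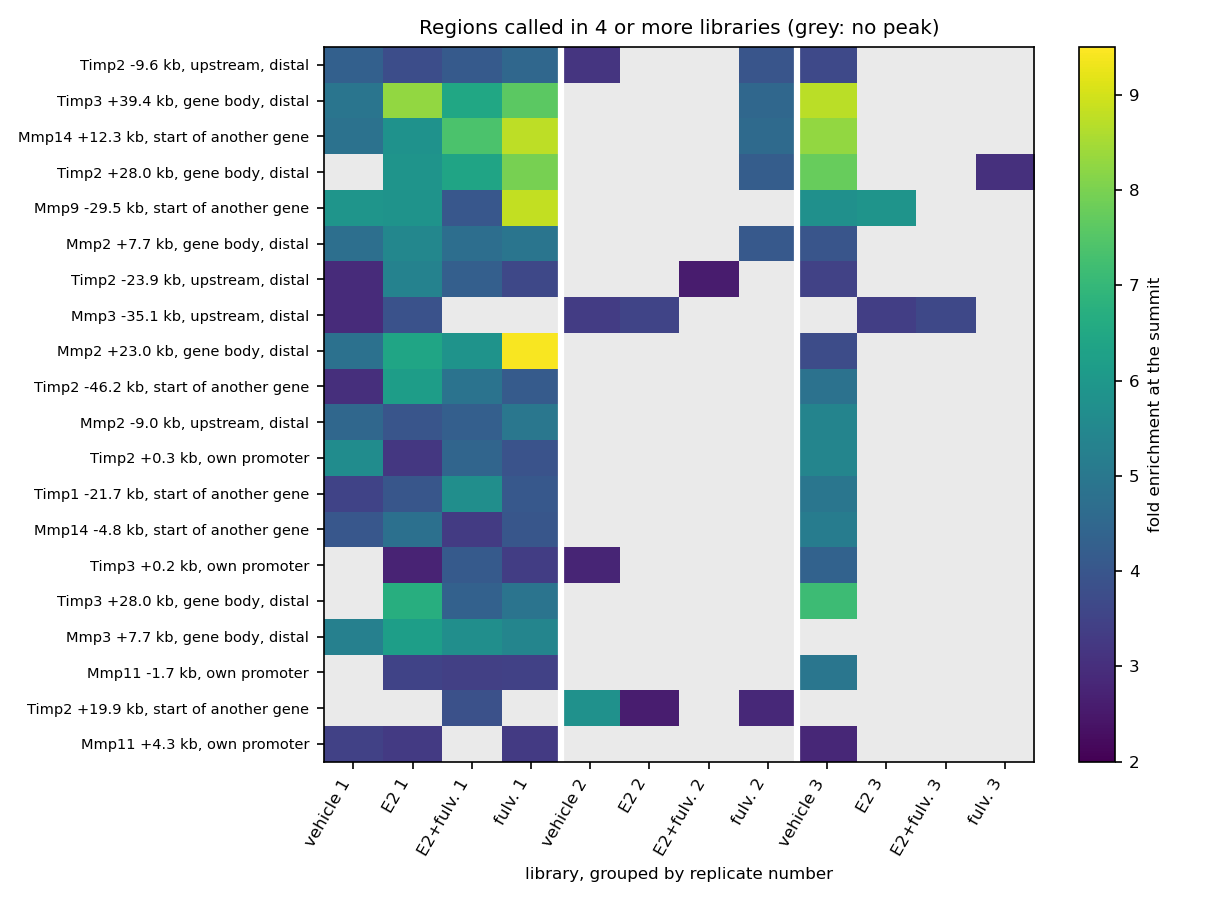
Fold enrichment at the summit (colour) of the 20 regions called in 4 or more libraries, in rows named by gene, distance from the gene start and class, for the 12 libraries in columns grouped by replicate number, with grey where a library had no peak. The 4 libraries numbered 1 and vehicle replicate 3 hold most of the calls, and 12 of the 15 regions called in 5 or more libraries have a peak in all of these 5.

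The comparison of E2 with E2 plus fulvestrant sets estradiol alone against estradiol with the receptor antagonist, so both groups received estradiol. No locus of the 9 separated the 3 E2 from the 3 E2 plus fulvestrant libraries. Genome-wide, 1.7% of 21291 loci had more peaks in all E2 than in any E2 plus fulvestrant library and 0.456% fewer. Summed over the 9 loci there were 40, 21 and 13 peaks in E2 and 40, 17 and 16 in E2 plus fulvestrant. These groups overlapped, and their means were 24.7 ± 13.9 and 24.3 ± 13.6 (SD, n = 3). *Mmp2* had fewer peaks in E2 in all 3 replicate numbers (mean 2 against 4, exact permutation p = 0.5), and no locus went below an exact permutation p of 0.4. Leaving out E2 replicate 1 separated 3 loci, *Mmp2*, *Mmp11* and *Mmp14*, all lower in E2. Leaving out E2 replicate 3 separated *Mmp3* and *Mmp13*, and leaving out E2 plus fulvestrant replicate 1 separated *Timp2* and *Timp3*, all higher in E2. Both the set of loci and their direction depended on which library was left out. *Mmp13* had no peak with q of 0.05 or less in any library. The *Mmp3* counts include the region 35081 bp upstream, whose sequence is not unique. With 1 library left out, separation is easier to reach by construction, and the share of all loci that separated is not given here.

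For E2 against vehicle, the count of separated loci was 0, with 0.172% of loci higher and 3.26% lower genome-wide. Vehicle held 30, 27 and 35 peaks in the 9 loci, a mean of 30.7 ± 4.04 (SD, n = 3). The largest difference was at *Mmp2*, 2 ± 2.65 peaks in E2 against 5.67 ± 0.577 in vehicle (SD, n = 3, two-sided exact permutation p = 0.2), and it came from numbers 2 and 3, since replicate 1 had 5 in both. Vehicle replicates 1 and 2 listed peaks from 3 tags and every E2 library from 4. With q of 0.05 or less *Mmp2* held 3, 2 and 4 peaks in vehicle and 4, 0 and 0 in E2 (mean 3 ± 1 against 1.33 ± 2.31, SD, n = 3). *Mmp9* was lower in E2 in all 3 replicate numbers, with 1.67 ± 2.08 against 4 ± 2 (SD, n = 3, exact permutation p = 0.3). Without E2 replicate 1, 4 loci separated (*Mmp2*, *Mmp9*, *Mmp11* and *Mmp14*, lower in E2), without vehicle replicate 1 *Mmp2* alone, also lower, and without vehicle replicate 3 *Timp2* and *Timp3*, higher in E2. No share of all loci separated with 1 library left out is given here to set beside these counts.

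Fulvestrant against vehicle also separated 0 of the 9, where 0.168% of all loci were higher and 4.63% lower. The fulvestrant libraries held 38, 13 and 9 peaks in the 9 loci, and replicate 1 lay above all 3 vehicle libraries while replicates 2 and 3 lay below them. Without fulvestrant replicate 1, *Mmp2*, *Mmp11* and *Timp3* separated, and without vehicle replicate 1 *Mmp2* did, all lower in fulvestrant. In E2 plus fulvestrant against vehicle the count was again 0, against 0.154% higher and 5.68% lower genome-wide. Leaving out E2 plus fulvestrant replicate 1 separated *Mmp2* and *Mmp11*, leaving out vehicle replicate 2 *Mmp9*, and leaving out vehicle replicate 3 *Mmp3*, all lower with E2 plus fulvestrant. Counts with 1 library left out again have no share of all loci beside them, for either comparison. The 3 comparisons share the vehicle libraries. With 3 libraries against 3, the smallest two-sided p an exact permutation test allows is 0.10, so none of these comparisons could pass 0.05.

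With the 6 libraries given E2 set against the 6 without, 0% of loci were higher and 0% lower at an adjusted p under 0.05 (exact permutation test, 924 assignments, 21630 loci), and the 6 with fulvestrant against the 6 without gave 0% and 0% as well. At an unadjusted p under 0.05 there were 222 and 578 loci, and 0 of the 9 in either. The smallest p these 924 assignments allow is 0.00217, which cannot pass the adjustment unless many loci reach it together. The lowest p among the 9 was 0.141 for E2, at *Mmp9* (2 ± 1.55 against 3.67 ± 1.63 peaks, SD, n = 6, exact permutation), and 0.158 for fulvestrant, at *Mmp3* (0.833 ± 0.753 against 2.17 ± 1.60, SD, n = 6, exact permutation). The *Mmp3* counts include the region 35081 bp upstream, whose words occurred between 115 and 199 times in the genome. The effect of E2 without and with fulvestrant was most unlike at *Mmp2*, −3.67 and 1.67 peaks (exact permutation p = 0.0931 for the difference, n = 3 per group, adjusted over all loci 1).

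No region of the 9 loci was present in 3 of 3 libraries of one treatment and in 0 of 3 of another in these 4 comparisons, each of which had between 100 and 116 regions of the 9 loci. Genome-wide, 0.137% of regions were found in E2 and not in E2 plus fulvestrant by this rule and 0.0416% the reverse. For E2 against vehicle the shares were 0.0567% and 0.0845%, for fulvestrant against vehicle 0.0495% and 0.0993%, and for E2 plus fulvestrant against vehicle 0.0371% and 0.121%. At these shares a set of about 100 regions would seldom hold 1, so the count of 0 does not set the 9 loci apart.

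Peaks in the 9 loci also moved with the replicate number, though not in vehicle, where replicate 1 had 30 peaks against 27 and 35. The libraries numbered 1 held from 30 to 40 peaks in the 9 loci, a mean of 37, and those numbered 2 and 3 from 9 to 35, a mean of 18.9. The ratio was 1.96, against 1.58 for the whole lists. For peaks with q of 0.05 or less the means were 23 and 4.63, a ratio of 4.97 against 3.15 for the whole lists. All 9 loci had a higher mean in the libraries numbered 1, from 1.25-fold at *Mmp13* to 4-fold at *Timp1*. No single locus separated the 4 from the other 8, as 2.09% of all loci did with more peaks and 0.166% with fewer. Its part in the treatment differences was not tested. Within replicate number 1 the summed peaks were 30 in vehicle, 40 in E2, 40 in E2 plus fulvestrant and 38 in fulvestrant, so vehicle was the lowest there and the highest on average within numbers 2 and 3.

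Of 29 other genes of the pathway, 16 *Mmp* genes, 3 inhibitors and 10 activators and receptors, 1 separated E2 from E2 plus fulvestrant and 1 separated E2 from vehicle, in both cases *Furin*, the convertase that cuts the propeptide of MMP11 and MMP14, with fewer peaks in E2. *Plat*, the tissue plasminogen activator, was lower in fulvestrant than in vehicle. With E2 plus fulvestrant against vehicle, 5 were lower (*Mmp12*, *A2m*, *Plat*, *Bsg* and *Hpn*) and 1 was higher (*Mmp21*). The shares of all loci for that comparison were 5.68% lower and 0.154% higher. Of all loci, 0.456% were lower in E2 than in E2 plus fulvestrant, and 3.26% were lower in E2 than in vehicle. The share lower in fulvestrant than in vehicle was 4.63%. The 29 genes were not tested against these shares, and the comparisons with vehicle rest on the same vehicle libraries.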

How the data were processed

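Accessibility was measured by ATAC-seq in 12 libraries, with groups and replicate numbers taken from the labels. Per the labels and the methods of the study, the authors trimmed reads with Trimmomatic 0.39, aligned them to mm10 with Bowtie2, removed duplicates with Picard 2.21.4, and called peaks in each library separately with MACS2 2.2.71, with no pooling. For each peak the deposited lists give its summit, a score, a fold enrichment (a ratio of pileup to background), and the p-value and q-value as −log10. All deposited peaks were used, and none of the deposited scores entered a test. The lists were cut at p of 0.01 by their values, and a list of excluded regions was not used here.

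Peaks were assigned to GENCODE M21 loci by summit with Python 3.11.15, numpy 2.4.6, pandas 2.3.3 and scipy 1.17.1. Peaks per locus were compared between 3 and 3 libraries by whether the groups overlapped, with two-sided exact permutation tests, and between 6 and 6 by exact permutation with Benjamini-Hochberg adjustment over all loci. Densities were compared by exact sign-flip permutation. Overlapping peaks were merged into regions. Tag pileup and background were solved from fold enrichment and −log10 p within 0.002. The locus tests, the pileup and the motif search were tested on simulated data. A planned model of fold enrichment in regions called in all 12 libraries was not run, since no region of the 9 loci was called in more than 7. Count models need read counts, which were not analysed here. Named regions were, for each gene, the promoter region called in the most libraries and the 5 distal regions called in the most, with ties broken by median fold enrichment. The other regions named in the text were chosen after their values were seen. The 9 genes and all lists were chosen with earlier results of these data known. *Mmp1a* is not annotated as protein-coding in GENCODE M21 and was not in the pathway list.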

Additional observations from a re-analysis of the deposited data

How the results depend on the processing

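The count of the 9 loci that separated the groups was 0 in all 6 comparisons and was recomputed with peaks of q of 0.05 or less, fold enrichment of at least 5, peaks per 10000 listed, shorter loci, each library left out, and a replicate block. For the 2 comparisons of 6 with 6 libraries, called at an adjusted p under 0.05, it was 0 in each of these, a threshold this design can hardly reach. For E2 against E2 plus fulvestrant it became 2 per 10000 peaks, 5 within numbers 2 and 3, and from 0 to 3 with 1 library left out. For E2 against vehicle it was 4 within numbers 2 and 3 and from 0 to 4 with 1 library left out, for fulvestrant against vehicle 3 and from 0 to 3, and for E2 plus fulvestrant against vehicle 3 and from 0 to 2. With 2 or 3 libraries in a group, separation is easier to reach by construction. The shares of all loci separated under these settings, or called with the block below, are not given here. The counts are therefore not read as results about the 9 loci. With the replicate number as a block, a locus counted in the comparisons of 3 with 3 if it moved one way in 3 of 3 numbers, and 1 locus was called for E2 against E2 plus fulvestrant (*Mmp2*, lower), 1 for E2 against vehicle and 1 for E2 plus fulvestrant against vehicle (*Mmp9*, lower in both), and 0 for fulvestrant against vehicle. *Mmp9* was also lower in 3 of 3 numbers for any E2 against no E2, where the block permutation called 0 at an adjusted p under 0.05. Neither the labels nor the methods say that a number marks a shared animal or batch. Deviations of same-numbered libraries from their group means correlated from −0.0434 to 0.218 over 18507 loci (median 0.0544, against −0.0248 for different numbers), from 0.201 to 0.218 among number 1 of E2, E2 plus fulvestrant and fulvestrant. The methods of the study state that batch effects were removed with limma, without saying which libraries shared a batch. The main comparisons were therefore run without a block, and the block is given as an alternative.

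The log2 difference of the summed peaks (1 added) reversed by scaling and by number, and the cause was not tested. Per 10000 peaks it went from 0.0031 to −0.23 for E2 against E2 plus fulvestrant, from −0.44 to 0.11 for E2 against vehicle, from −0.44 to 0.35 for E2 plus fulvestrant against vehicle, from −0.02 to 0.24 for any E2 and from −0.42 to 0.10 for any fulvestrant. Within number 1 it was 0.40 for E2 against vehicle, 0.40 for E2 plus fulvestrant against vehicle, 0.33 for fulvestrant against vehicle (−0.84 over all libraries), 0.24 for any E2 and 0.17 for any fulvestrant. Within numbers 2 and 3 the same 5 were −0.86, −0.86, −1.42, −0.15 and −0.71. Without reversal, it moved per 10000 peaks to −0.03 for fulvestrant against vehicle, and with q of 0.05 or less to −1.23 for E2 against vehicle, −1.31 for E2 plus fulvestrant against vehicle and −0.96 for any E2. With fold enrichment of at least 5 it was −1.06 for E2 plus fulvestrant against vehicle. With 1 library left out it ranged from −0.40 to 0.41 for E2 against E2 plus fulvestrant and from −0.27 to 0.13 for any E2. No neighbouring loci differed in density with q of 0.05 or less, in the gene body alone, within numbers 2 and 3 or with 1 library left out. Promoter peaks within 1000 bp were found in 3 libraries rather than 6 for *Mmp2*, 3 rather than 5 for *Mmp14*, 5 rather than 8 for *Timp3* and 0 rather than 3 for *Mmp9*. With q of 0.05 or less they were found in 3 libraries rather than 8 for *Timp3*, 4 rather than 8 for *Mmp11*, 3 rather than 5 for *Mmp14* and 1 rather than 3 for *Mmp9*. These promoter counts are not limited to the locus, and no *Mmp9* promoter region inside the locus had q of 0.05 or less. The planned model of fold enrichment and its alternatives were not run.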

Other observations

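Other genes of the pathway, chosen after their values were seen, varied widely in promoter calls. *Reck*, a membrane-anchored inhibitor of metalloproteinases, had a promoter peak in 9 of 12 libraries and *Plau*, the urokinase that activates plasminogen, in 9, while *Plaur*, the urokinase receptor, had one in 4 and *Plg*, plasminogen itself, in 1. *Lrp1* had 103 peaks in its locus over the 12 libraries, a density of 6.45 peaks per 100 kb. *Mmp16*, a membrane-type protease with a long gene, had 33 peaks at a density of 0.870, and *Timp4* had 14 peaks and a promoter peak in 1 library. These values are given without a test.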
